A study of Mus musculus with 6 samples.

Results

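The control infarct transcriptome is the RNA of ventricular tissue from the 3 libraries labelled CTL, of 6 libraries in the series, read here as a description of healing infarct with no comparison of genotypes. The members were chosen by their group label alone. The series asks what Runx1, a transcription factor, does in periostin-expressing fibroblasts after myocardial infarction, and its other 3 libraries come from hearts with a conditional Runx1 allele, which were not used here. Each CTL mouse carried Postn CreER+/- and wild-type Runx1 (Runx1 WT). The strain was C57BL/6J, the age was 8 to 10 weeks, and the left anterior descending coronary artery had been tied 7 days before collection. All mice ate a tamoxifen diet from the operation until collection, so these controls carried both the inducible recombinase, driven by the promoter of the fibroblast gene Postn, and the drug that switches it on. The sample was the part of the ventricles below the ligature, so scar, border and surviving muscle were extracted together. By the labels the mouse of replicate 1 was a female, those of replicates 2 and 3 males. Nothing in the labels beyond the sample names states how the 3 libraries relate to separate animals or operations, so their spread may hold both biological and technical parts.

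When a coronary artery is tied, the muscle beyond it dies and is replaced in overlapping stages. Neutrophils and monocytes arrive early, macrophages clear the debris, and fibroblasts then multiply, take on contractile features and lay down a collagen scar while new vessels grow into it. Surviving muscle at the border switches on fetal and stretch genes such as the natriuretic peptides, and fibroblasts of the maturing scar later turn on tendon-like and cartilage-like genes.

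The 3 libraries held 19100275, 19390322 and 16598561 estimated reads assigned to transcripts. Throughout, 3 values in a row are those of replicates 1, 2 and 3 in that order. Abundance is given as TPM, a unit that divides reads by transcript length and scales every library to the same total, so levels of different genes can be compared. A programme's share is the summed TPM of its genes as a percent of the TPM of all genes. In whole tissue, fewer cells of a type and less RNA per cell cannot be told apart, and this holds for every share given here. The 4 Y-linked genes read as a label check were at 0 in the female replicate 1 and present in both male libraries, as labelled. Across the 13858 genes with a mean of at least 1 TPM, the Pearson correlation of log2(TPM + 1) between libraries was 0.930 for replicates 1 and 2, 0.945 for replicates 1 and 3, and 0.970 for replicates 2 and 3. These correlations run across genes, which are not independent replicates. Replicate 1 was therefore the library least like the others. Because it was also the only female, sex and library cannot be told apart in anything that sets replicate 1 aside.

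The tissue carried the defining markers of infarcted ventricle. The 7 cardiomyocyte markers summed to 12653, 13598 and 12101 TPM, and the 6 markers of activated fibroblasts to 5935, 6235 and 6243 TPM. Those of macrophages, 5 genes, summed to 1542, 1086 and 1170 TPM, and those of endothelium, 4 genes, to 301, 273 and 278 TPM. By the markers chosen, organs that lie close to the heart left little trace. The 3 lung markers summed to at most 5.23 TPM with Scgb1a1 at 0, the 3 thymus markers to at most 0.444 TPM with Rag1 and Ptcra at 0, and the 3 atrial markers to at most 5.02 TPM with Bmp10 at 0.

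The transcriptome was concentrated in few genes. Of 35498 annotated genes, 13858 had a mean of at least 1 TPM, 8701 at least 10, 1305 at least 100 and 149 at least 1000 TPM. The 217 most abundant genes held 50% of all TPM (226, 197 and 216 genes within the single libraries), and 37 genes held 25%. The 10 most abundant held 11.9%, the 100 most abundant 38.4% and the 1000 most abundant 70.4%. Of the 100 leading genes in each library, 86 were shared by all 3 libraries, and of the 1000 leading genes 872 were shared. Counted in reads, which favour long transcripts, 743 genes were needed for 50%. The curve of cumulative share against rank shows both counts.

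**Figure D1:**
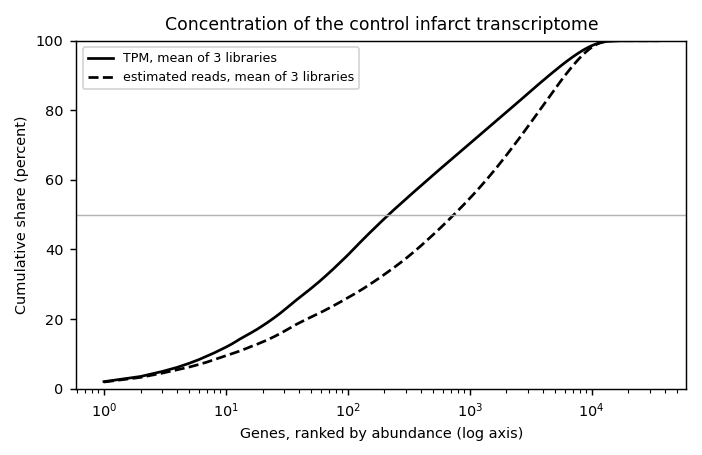
Cumulative share of TPM (solid line) and of estimated reads (dashed line), in percent, against the rank of genes by abundance on a log axis, both as means of the 3 CTL libraries. The grey line at 50% is crossed at 217 genes for TPM and at 743 genes for reads.

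By TPM, machinery for making protein and energy came first. The cytosolic ribosomal protein genes, 92 in number, held 13.4%, 11.3% and 13.1% of the TPM, a mean of 12.6% ± 1.13 (SD, n = 3). The 13 genes encoded by the mitochondrial genome held 11.4%, 13.8% and 10.5%, a mean of 11.9% ± 1.7 (SD, n = 3). The most abundant gene of all was mt-Co1, the core subunit of cytochrome c oxidase, at 18156, 23219.6 and 18639 TPM. It was followed by mt-Co2 at 17016, 15714 and 11830.1 TPM, mt-Atp6, a subunit of ATP synthase, at 14429, 15092 and 13369 TPM, mt-Co3 at 12413, 14162 and 9484 TPM, and mt-Cytb, the cytochrome of complex III, at 10425, 13604 and 10485 TPM. Replicate 2 had the highest value of 4 of these genes, mt-Co2 being the exception, and the highest share of the class. In addition, 5 nuclear pseudogenes whose sequence matches these genes stood among the 12 most abundant genes, and how reads were divided between the copies is an estimate. With the 6 such pseudogenes counted in, the mitochondrial share was 16.2% ± 2.27 (SD, n = 3). In reads the mitochondrial genes held 6.06% and the ribosomal proteins 3.65% when no division by length was made. Both were then below the structural matrix list, at 7.57%, so their lead depends on the measure. Among ribosomal proteins the highest were Rpl41 at 5401, 3836 and 4871 TPM, Rplp1 at 4920.0, 3839.7 and 4717 TPM, and Rps27rt, at 3749.6, 4261 and 4098 TPM, of whose leading transcript 92.4% of 31-base words also occur in other genes. The nuclear genes of oxidative phosphorylation, 74 of them, added 3.02% ± 0.164 (SD, n = 3) and were among the most even, with a median coefficient of variation (SD over mean) of 0.0822. Their leader Atp5b, the catalytic beta subunit of ATP synthase, had 2220.3, 2316 and 2136 TPM.

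Outside these 2 classes, and with unprocessed pseudogenes left out, the leading genes came from stressed muscle, scar, macrophages and blood. Nppa (ENSMUSG00000041616, chromosome 4, 148000722 to 148002079 on GRCm38), which encodes atrial natriuretic peptide and is re-expressed by stressed ventricle, was the most abundant, at 4827, 10668 and 7401 TPM. The 5 pseudogenes with mitochondrial sequence ranked above it. It was lowest in replicate 1 and its 3 values did not lie close together (coefficient of variation 0.384). Apoe, a lipid carrier made by macrophages, followed at 5343, 3722 and 9043 TPM, with replicate 3 well above the other two. Eef1a1, the elongation factor that brings tRNA to the ribosome, was nearly level at 5304, 5327 and 5577 TPM. Sparc, a collagen-binding matricellular protein, had 4395, 5772 and 5746 TPM, and Tnnt2, cardiac troponin T, had 4846, 5436 and 5175 TPM. Ftl1, the ferritin light chain that stores iron, had 7738, 3658 and 4039.5 TPM and was highest in replicate 1. In the plot of leading genes the haemoglobin genes had the widest ranges of the 30.

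**Figure D2:**
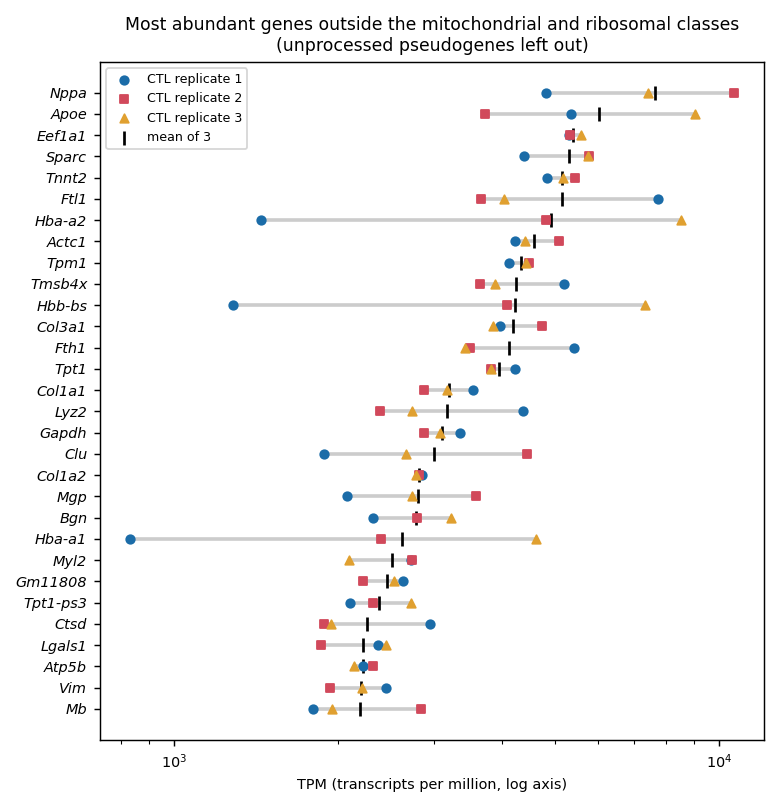
TPM (log axis) of the 30 most abundant genes that are neither mitochondrially encoded, cytosolic ribosomal nor unprocessed pseudogenes, with 1 symbol per CTL library and a black tick at the mean of 3. Hba-a2, Hbb-bs and Hba-a1 span the widest ranges, and Col1a2 and Eef1a1 the narrowest.

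Each programme was described by a list of genes, 52 lists in all, with every gene in 1 list only. Of their 1167 genes, 1103 had a mean of at least 1 TPM and 14 had no read in any of the 3 libraries. Together they held 54.2% ± 0.396 (SD, n = 3) of the TPM. The median coefficient of variation over all 13858 genes at or above 1 TPM was 0.148, against a median of 0.0461 that counting of reads alone would give, and 91.2% of genes varied more than counting. The common biological coefficient of variation from edgeR was 0.202.

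**Figure D3:**
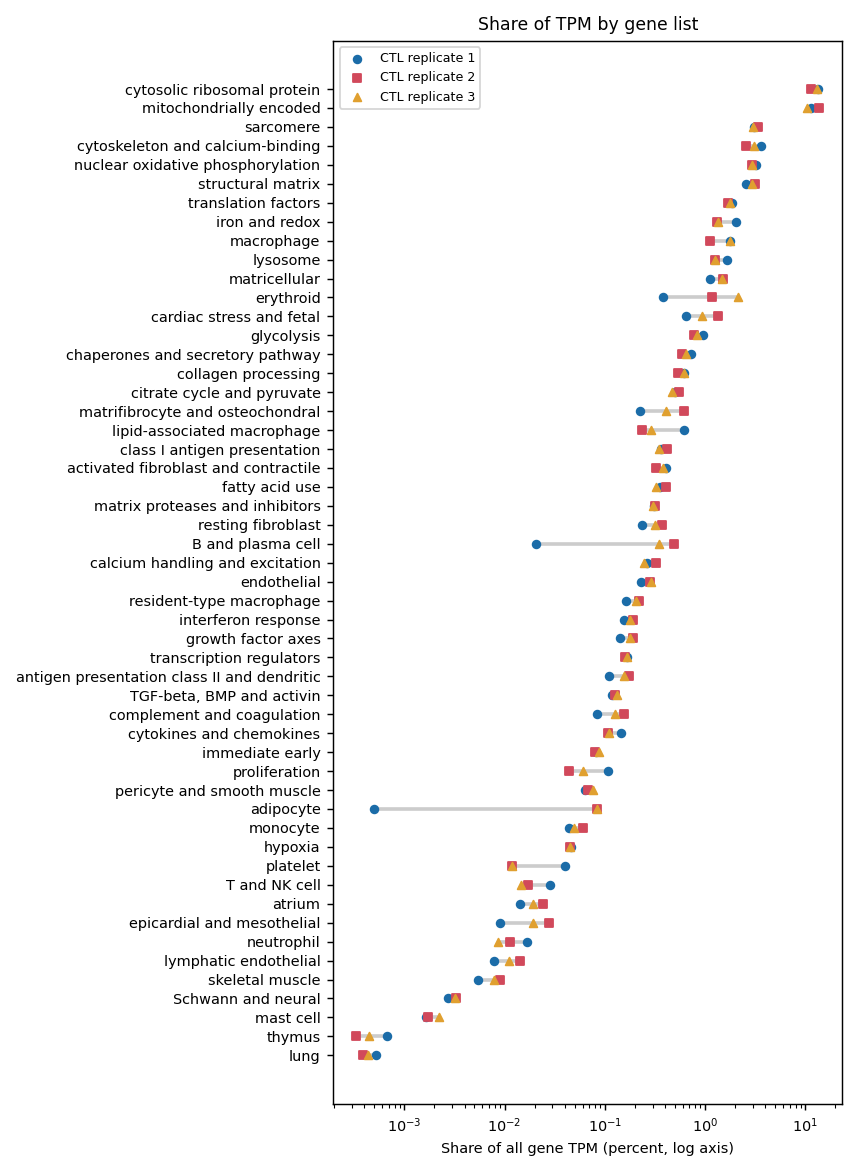
Share of all gene TPM (percent, log axis) of each of the 52 gene lists, ordered by mean share, with 1 symbol per CTL library and a grey bar from the lowest to the highest. The ribosomal and mitochondrial lists lead, and the adipocyte, B and plasma cell and erythroid lists have the longest bars.

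A gene was counted as standing apart when 1 library was at least 1.5-fold above, or at least 1.5-fold below, both others in TPM. This is a rule of size on single libraries, not a test, and with 1 group no test between groups was made. Of the 13858 genes, 6.18% stood apart as high in replicate 1, 4.11% as high in replicate 2 and 2.81% as high in replicate 3. Low values set apart 8.19% in replicate 1, 3.75% in replicate 2 and 1.99% in replicate 3. In all 3064 genes (22.11%) stood apart in at least 1 library, and these percentages are the background for the counts of list members below. TMM factors, an alternative scaling, were 1.004, 0.980 and 1.016, so a common shift of all genes was small.

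The scar matrix lists together held more of the TPM than the lists of heart muscle contraction together, in each library. Genes of structural matrix, matricellular proteins, collagen processing and matrix proteolysis, 123 in all, held 4.63%, 5.49% and 5.33% of the TPM, a mean of 5.15% ± 0.462 (SD, n = 3), and 11.2% ± 0.614 (SD, n = 3) of the reads. Structural matrix alone (50 genes, all at or above 1 TPM) held 2.58%, 3.14% and 2.95% of the TPM and 7.57% of the reads. Its TPM share was below that of the 33 sarcomere genes (3.09%, 3.39% and 3.03%) in each library, so the order depends on the lists summed. Col3a1, which encodes the thinner fibrillar collagen of young scar, had 3964, 4739.5 and 3843 TPM and took 1.34% of all reads, the highest read share of any nuclear gene. Of the chains of type I collagen, Col1a1 had 3534, 2879 and 3177 TPM and Col1a2 had 2849, 2817 and 2778 TPM. Col1a2 was one of the steadiest genes, with a coefficient of variation of 0.0126. The ratio of Col1a1 to Col1a2 was 1.24, 1.02 and 1.14, and the ratio of Col3a1 to Col1a1 was 1.12, 1.65 and 1.21. In all 3 libraries, then, Col3a1 was above Col1a1 in TPM, by the most in replicate 2. In estimated reads the ratio was 0.957, 1.38 and 1.02, so the order in replicate 1 depends on division by length.

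Other matrix families filled in the scar. Bgn, a small proteoglycan that binds collagen, had 2321, 2793 and 3221 TPM, and Mgp, an inhibitor of calcification, had 2081, 3583 and 2734 TPM. Fn1, fibronectin of the provisional matrix, was even at 1700.5, 1781 and 1944 TPM. The fibrillar regulator Col5a2 had 454, 560.1 and 508 TPM, and the basement membrane chain Col4a1 had 486, 438 and 485 TPM. Replicate 1 differed from the others in a subset: 12 of 50 structural genes stood apart as low in replicate 1, against 8.19% of all genes. They included the collagen-binding proteoglycans Dcn (638, 1325 and 968 TPM) and Aspn (263, 695 and 471 TPM), elastin (Eln, 341, 909 and 1029 TPM) and the elastic-fibre protein Mfap4 (422, 912 and 828 TPM). For each of these 4 genes replicates 2 and 3 were both above replicate 1. Only Fbln2 went the other way, with 711, 435 and 369.8 TPM.

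Matricellular genes signal to cells rather than hold load. Their list of 18 held 1.12%, 1.5% and 1.47% of the TPM. After Sparc came Igfbp7, a secreted growth factor binder, at 1847, 2137 and 2341 TPM, then Postn at 919, 2096 and 1612 TPM, then Fstl1 at 1125, 1332 and 1446 TPM. Postn (chromosome 3, 54361109 to 54391037), the gene whose promoter drives the recombinase in these mice, was lowest in replicate 1, at least 1.5-fold below both others. Ccn2, a connective tissue growth factor, had 674, 989 and 862 TPM, and Cthrc1, a marker of scar-forming fibroblasts, had 525, 713 and 715 TPM.

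The enzymes that fold and cross-link collagen were steady as a class. The 29 genes of this list held 0.619%, 0.54% and 0.611% of the TPM, and 1 stood apart as low in replicate 1 and 1 as low in replicate 2. Serpinh1, the collagen chaperone, had 1067, 664 and 803 TPM. The cross-linking enzyme Lox had 475, 548 and 639 TPM and its relative Loxl1 had 312, 397 and 399 TPM. Bmp1, which trims procollagen, had 187, 189 and 187 TPM and a coefficient of variation of 0.00634. Proteases and their inhibitors were fewer in transcripts, at 0.309% ± 0.00874 (SD, n = 3) of the TPM, and 6 of 25 stood apart as high in replicate 1 against 6.18% of all genes. Timp1, an inhibitor of metalloproteinases, had 621, 258 and 302 TPM, whereas the gelatinase Mmp2 had 168, 397 and 245 TPM. Their ratio was thus 3.69, 0.650 and 1.23, above 1 in replicates 1 and 3 and below 1 in replicate 2. The macrophage elastase Mmp12 had 70.98, 12.04 and 8.39 TPM, with replicates 2 and 3 close to each other and far under replicate 1.

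Fibroblasts were read from lists for resting, activated and late scar states. The activated and contractile list (23 genes) held 0.404%, 0.322% and 0.377% of the TPM. Acta2, the smooth muscle actin of myofibroblasts, had 854, 398 and 588 TPM and Tagln, its actin-binding partner, had 641, 377 and 527 TPM; both genes are also made by vascular smooth muscle. Fap, fibroblast activation protein, was low but present at 19.3, 23.97 and 22.4 TPM. Activated and contractile genes did not all lean the same way. Acta2 and Tagln were highest in replicate 1, while 5 members, among them Pdgfrl (95.7, 195 and 161 TPM), Cilp (67.7, 179.7 and 119.6 TPM) and Ddah1 (82.9, 125 and 129 TPM), stood apart as low there.

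Resting fibroblast genes (20) held 0.235%, 0.368% and 0.319% of the TPM, and 5 stood apart as low in replicate 1. Their leader Gpx3, a secreted glutathione peroxidase, had 1028, 1829 and 1403 TPM. Pdgfra, a receptor of most fibroblasts, was level at 40.3, 41.3 and 40.2 TPM. By contrast Tcf21, a transcription factor of resting cardiac fibroblasts, had 35.5, 57.5 and 82.8 TPM, low in replicate 1. The matrifibrocyte and osteochondral list, for tendon-like and cartilage-like genes, had 13 of 20 genes at or above 1 TPM and held 0.226%, 0.616% and 0.412%. Of those, 6 of 13 (46.2%) stood apart as low in replicate 1, against 8.19% of all genes, and 5 as high in replicate 2, against 4.11%. Clu, clusterin, made up most of the list with 1885, 4449 and 2661 TPM. It stood apart as high in replicate 2 and not as low in replicate 1. Sfrp2, a secreted Wnt modulator, had 177, 1085 and 937 TPM. Comp, cartilage oligomeric matrix protein, had 66.8, 388 and 324 TPM. Angptl7, a secreted angiopoietin-like protein, had 12.3, 79.5 and 64.1 TPM and the secreted Cytl1 had 0.466, 5.37 and 3.18 TPM, both low in replicate 1. For Sfrp2 and Comp, replicates 2 and 3 lay close together and replicate 1 was several-fold lower. Sox9, a transcription factor of cartilage, stayed low at 15.8, 17.9 and 22.9 TPM, and the replicates differed less.

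Heart muscle remained a large part of the sample. Sarcomere, stress and calcium-handling genes, 69 in all, held 3.999%, 5.07% and 4.22% of the TPM, a mean of 4.43% ± 0.565 (SD, n = 3), and 4.24% ± 0.508 (SD, n = 3) of the reads. The 33 sarcomere genes alone held 3.09%, 3.39% and 3.03% of the TPM. Thin-filament genes led, namely Tnnt2, then Actc1, cardiac actin, at 4222, 5079 and 4416 TPM, then Tpm1, tropomyosin, at 4115, 4478 and 4419.7 TPM. The ventricular light chain Myl2 had 2719, 2732 and 2096 TPM, the oxygen store Mb had 1798, 2845 and 1952 TPM, and the intermediate filament Des had 1226, 1698 and 1717 TPM. The median coefficient of variation of the list was 0.127, near the medians of all genes at 100 to 1000 TPM (0.115) and of those above 1000 TPM (0.116).

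The myosin heavy chains varied more. Myh6, the fast adult form, had 1781, 957 and 834 TPM from 67991, 50576 and 35667 estimated reads, and Myh7, the slow fetal form, had 138, 294 and 179.7 TPM. Their ratio was 12.9, 3.26 and 4.64 in TPM, but 7.87, 2.54 and 3.12 in estimated reads, so replicate 1 was highest on both scales and by less in reads. The leading Myh6 transcript was only 542 bases long and held 55.3%, 36.3% and 41.1% of the Myh6 TPM. Of the 31-base words of the leading Myh6 transcript, 56.6% occur in other genes, so how reads were divided between near-identical myosins bears on both values. Skeletal actin Acta1 reached 0.0566, 0.0818 and 0.0627 of Actc1.

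Stress genes were dominated by Nppa. The list of 13 (11 at or above 1 TPM) held 0.643%, 1.35% and 0.943% of the TPM. Ankrd1, a stretch-responsive sarcomere protein, had 717, 1475 and 843 TPM and was highest in replicate 2. Nppb, brain natriuretic peptide, had 456, 819 and 621 TPM. Both natriuretic peptides had the same order of libraries, with replicate 2 highest and replicate 1 lowest, and the ratio of Nppa to Nppb was 10.6, 13.03 and 11.9. Among calcium-handling genes (0.277% ± 0.0401 (SD, n = 3) of the TPM), Pln, which restrains the calcium pump, had 622, 913 and 674 TPM. The pump itself, Atp2a2, had 519.7, 684 and 467 TPM, and the release channel Ryr2 had 62.8, 77.9 and 57.3 TPM. All 3 were highest in replicate 2, within 1.5-fold of the next library.

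Fuel genes of both muscle and wound were present. Glycolysis held 0.954%, 0.783% and 0.834% of the TPM, the citrate cycle and pyruvate list 0.508%, 0.556% and 0.469%, and fatty acid use 0.355%, 0.404% and 0.327%. Gapdh had 3347, 2874 and 3081 TPM and Aldoa 1295, 1246 and 1178 TPM. Fabp3, the fatty acid carrier of heart muscle, had 989, 1023 and 794 TPM. The ratio of Ldha, the lactate dehydrogenase form of glycolytic cells, to Ldhb, the form of oxidative muscle, was 2.74, 1.61 and 2.33, so Ldha exceeded Ldhb in each library. The hypoxia list had the narrowest range of the 52 lists between libraries (1.03-fold), at 0.0461%, 0.0449% and 0.0447% of the TPM, with Bnip3, a mitophagy receptor, at 101, 115 and 111 TPM and Vegfa, the vessel growth factor, at 67.6, 46.1 and 53.3 TPM.

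Promoter sequences from RefSeq on build GRCm38.p6 show the upstream bases of genes from the muscle programme and from the dividing-cell programme described further on. Windows ran from 250 bases before to 50 bases after each annotated start, 32851 windows in all. Both strands were searched for the CArG box, the element bound by serum response factor in muscle and immediate early genes, and for GGGCGG, the core of the GC box. TATAAA and CACGTG were searched too and matched in 13.62% and 7.15% of all windows. Of the windows of sarcomere genes 16.67% (7 of 42) held a CArG box, against 1.629% of all windows. Of those of proliferation genes 83.33% (25 of 30) held GGGCGG, against 35.66% of all windows, 61.1% of those of genes at or above 1 TPM and 26.19% of those of sarcomere genes. A high share was not particular to dividing-cell genes: GGGCGG was in 86.96% of the windows of the chaperone list, 83.33% of the collagen processing list, 78.95% of the TGF-beta, BMP and activin list and 77.27% of the cytoskeleton list. Some genes have more than 1 window, so windows are not independent. The 250 bases before the start are printed for the muscle genes Actc1 (chr2:114052876-114053125, minus strand) and Myl3, the ventricular essential light chain (chr9:110763428-110763677, plus strand), with the CArG box in capitals. They are followed by Pcna, the DNA polymerase clamp (chr2:132253181-132253430, minus strand), and Cdk1, the mitotic kinase (chr10:69352913-69353162, minus strand), with GGGCGG or its reverse complement in capitals. A match is a run of letters and not shown to be a bound site.
Actc1: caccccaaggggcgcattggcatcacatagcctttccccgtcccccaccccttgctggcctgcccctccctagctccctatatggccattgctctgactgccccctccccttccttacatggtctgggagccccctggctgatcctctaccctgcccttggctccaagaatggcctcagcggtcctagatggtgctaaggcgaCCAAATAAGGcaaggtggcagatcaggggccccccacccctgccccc
Myl3: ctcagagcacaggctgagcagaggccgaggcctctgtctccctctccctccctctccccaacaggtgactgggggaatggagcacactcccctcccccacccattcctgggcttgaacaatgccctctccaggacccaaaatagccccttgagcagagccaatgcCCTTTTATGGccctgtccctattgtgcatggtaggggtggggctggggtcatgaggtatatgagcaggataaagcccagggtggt
Pcna: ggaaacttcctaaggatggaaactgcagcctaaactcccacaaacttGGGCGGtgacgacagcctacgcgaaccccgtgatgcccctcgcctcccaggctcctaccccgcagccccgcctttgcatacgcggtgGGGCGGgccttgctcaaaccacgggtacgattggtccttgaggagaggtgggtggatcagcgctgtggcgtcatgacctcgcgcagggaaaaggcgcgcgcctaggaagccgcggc
Cdk1: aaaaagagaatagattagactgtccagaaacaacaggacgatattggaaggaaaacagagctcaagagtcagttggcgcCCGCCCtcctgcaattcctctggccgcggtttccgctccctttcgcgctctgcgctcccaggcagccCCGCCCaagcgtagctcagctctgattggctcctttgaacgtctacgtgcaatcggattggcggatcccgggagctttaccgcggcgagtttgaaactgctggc
In Actc1 the CArG box began 47 bases before the start and in Myl3 85 bases before it. In Pcna the first GGGCGG began 203 bases before the start and in Cdk1 171 bases before it. Actc1 and Myl3 (1249.7, 1235 and 1104 TPM) differed little between libraries, while Pcna and Cdk1 were higher in replicate 1. For the other sarcomere genes with a CArG box the coefficient of variation was 0.299 (Acta1), 0.276 (Nebl), 0.179 (Ldb3) and 0.0468 (Myom1). Whether promoter sequence is related to spread between libraries was not tested.

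Among the immune cell lists, those of macrophages held the most TPM. The general, resident-type and lipid-associated macrophage lists, 58 genes, held 2.13% ± 0.490 (SD, n = 3) of the TPM. In the general list (30 genes, 1.76%, 1.13% and 1.77%), Lyz2, a lysozyme of myeloid cells, had 4378, 2391 and 2729 TPM and the cysteine protease Ctss had 1276, 656 and 772 TPM. Of the C1q chains, which start the complement cascade and are secreted by tissue macrophages, C1qa had 871, 697 and 729.9 TPM, C1qb had 1063, 788 and 872 TPM and C1qc had 618, 504 and 528 TPM. Csf1r, the growth factor receptor on which macrophages depend, had 158, 128 and 143 TPM. Replicate 1 was highest for all of these, and 7 of 30 members stood apart as high there, against 6.18% of all genes. The most abundant gene of the list, Apoe (5343, 3722 and 9043 TPM), instead stood apart as high in replicate 3. The lysosome list, which macrophages share with other types, held 1.65%, 1.27% and 1.27% of the TPM. Of its members 6 of 21 stood apart as high in replicate 1, against the same 6.18%. Its leader Ctsd, an aspartic protease, had 2947, 1886 and 1943 TPM.

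Of the macrophage lists, that of lipid-associated macrophages, the foamy debris-clearing state, differed most between libraries. The 15 genes held 0.619%, 0.234% and 0.289% of the TPM, and 7 (46.7%) stood apart as high in replicate 1, against 6.18% of all genes. Spp1 (chromosome 5, 104435118 to 104441050), osteopontin, had 1906, 275 and 368 TPM from 31046, 4509 and 5152 estimated reads. Lgals3, a lectin of phagocytes, had 932, 329 and 405 TPM. Fabp5, a fatty acid carrier, had 617, 213 and 297 TPM and Plin2, which coats lipid droplets, had 318, 143 and 141 TPM. In all 4 genes replicates 2 and 3 lay within 1.5-fold of each other and replicate 1 lay above them. The lipid receptor Trem2 moved less, at 304, 166 and 219 TPM. Apoc4 (0.531, 5.58 and 4.05 TPM) stood apart as low in replicate 1 and Cd5l (11.9, 12.2 and 36.3 TPM) as high in replicate 3. Against Cd68, a general macrophage marker at 375, 144 and 174 TPM, Spp1 was 5.09, 1.91 and 2.12 times as abundant, so its excess in replicate 1 was larger than that of Cd68.

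The iron and redox list also had its highest share in replicate 1. The 22 genes held 2.02%, 1.32% and 1.35% of the TPM. Of them 4 stood apart as high in replicate 1, against 6.18% of all genes, and 1 as low there, against 8.19%. Over all members the median log2 ratio of replicate 1 to the mean of the others was only 0.151. Fth1, the ferritin heavy chain, had 5428, 3494 and 3416 TPM, and Hmox1, which breaks down haem, had 491, 153 and 129 TPM. Ferritin and haem oxygenase were thus highest in the library whose haemoglobin transcripts were lowest. Whether these values are related was not tested.

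Resident-type macrophage genes were divided. Of 13, 4 stood apart as low in replicate 1, against 8.19% of all genes, and 0 as high there. Stab1 (229, 142 and 157 TPM), Folr2 (56.0, 41.8 and 31.6 TPM) and F13a1 (62.3, 51.0 and 47.6 TPM) were highest in replicate 1 without standing apart. Selenop, a selenium carrier, had 777, 979 and 913 TPM, Gas6, a bridge to dying cells, had 225, 498 and 571 TPM and Lyve1, a hyaluronan receptor, had 9.35, 21.7 and 19.2 TPM. Mrc1, the mannose receptor, was level at 48.4, 40.1 and 44.001 TPM. The ratio of Lyve1 to Ccr2, the receptor of recruited monocytes, was 0.214, 0.600 and 0.522, below 1 in each library.

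Monocyte, neutrophil, and T and NK cell programmes were small. The monocyte list held 0.0515% ± 0.00858 (SD, n = 3), with Ccr2 at 43.6, 36.2 and 36.7 TPM and Plac8 at 119.9, 115 and 85.9 TPM. Its leader Hp, haptoglobin, had 45.3, 259 and 156 TPM and stood apart as low in replicate 1. Of 12 members 2 stood apart as low there and 2 as high, against 8.19% and 6.18% of all genes. The high ones were Chil3 (41.8, 10.1 and 12.7 TPM) and Clec4e (17.5, 2.26 and 3.51 TPM). The neutrophil list held 0.0169%, 0.0113% and 0.0086% of the TPM, with the calprotectin subunits S100a8 at 63.9, 28.6 and 29.2 TPM and S100a9 at 52.98, 30.2 and 21.8 TPM, both highest in replicate 1. Csf3r, the receptor of granulocyte growth factor, had 15.9, 10.4 and 9.92 TPM and the decoy receptor Il1r2 had 4.6, 3.05 and 1.14 TPM. These 4 were among 5 of 11 members that stood apart as high in replicate 1. Another 3 stood apart as low there, the granule genes Camp (0.434, 4.48 and 0.832 TPM), Ngp (0.506, 3.52 and 1.34 TPM) and Mpo (0.165, 1.03 and 2.01 TPM). The neutrophil surface marker Ly6g was at 0, 2.52 and 0 TPM, so it was detected in 1 library. T and NK genes held 0.0286%, 0.017% and 0.0148% of the TPM, the most in replicate 1, where Thy1, which fibroblasts also make, had the largest value of the list (221, 99.3 and 101 TPM). Of 15 members 3 stood apart as high in replicate 1, 2 as low there, and 4 as low in replicate 3 against 1.99% of all genes. In that list 6 of 15 members stood apart as high in replicate 2, against 4.11% of all genes, among them Nkg7 (6.17, 10.9 and 6.07 TPM), Lck (2.98, 6.53 and 3.14 TPM), Cd2 (0.706, 3.76 and 2.45 TPM) and Cd8b1 (0.625, 2.94 and 0.658 TPM). Each had a mean under 10 TPM.

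Antigen presentation and innate defence were broader. Class I genes held 0.376% ± 0.0389 (SD, n = 3), led by B2m, their common light chain, at 1455, 1743 and 1384 TPM, and none stood apart. Class II and dendritic genes held 0.146% ± 0.0326 (SD, n = 3), led by the invariant chain Cd74 at 363, 682 and 555 TPM, and 6 of 18 stood apart as low in replicate 1. Complement and coagulation genes held 0.0844%, 0.156% and 0.125%, and 7 of 15 (46.7%) stood apart as low in replicate 1. C3, the hub of the cascade, had 114, 329.9 and 237 TPM, its inhibitor Serping1 had 209.8, 447 and 413 TPM, the protease C1s1 had 47.04, 169.7 and 90.5 TPM and C4b had 34.3, 90.2 and 71.9 TPM. Replicate 1 was the lowest of the 3 for each of them, unlike for the C1q genes. Interferon response genes held 0.176% ± 0.0178 (SD, n = 3), led by Ifitm3 at 749, 667 and 722 TPM. Cytokines and chemokines held 0.121% ± 0.0218 (SD, n = 3), and 8 of 24 stood apart as high in replicate 1, including the monocyte attractant Ccl2 at 49.2, 19.3 and 15.4 TPM.

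Endothelial genes were even between libraries. The endothelial list (26 genes) held 0.232%, 0.28% and 0.29% of the TPM, with Pecam1, a junction protein, at 119, 111 and 117 TPM and Cdh5, the endothelial cadherin, at 109, 93.2 and 98.5 TPM. Fabp4, highest of the list at 496, 888 and 944 TPM, is made by capillaries and by fat cells, and was the 1 member that stood apart, low in replicate 1. Pericyte and smooth muscle genes held 0.0689% ± 0.0062 (SD, n = 3), led by Rgs5 at 100.4, 199 and 166 TPM, which stood apart as low in replicate 1. Actg2, a smooth muscle actin of the same list, stood apart as high there, at 53.2, 20.4 and 26.7 TPM. Smooth muscle myosin Myh11 had 8.77, 12.4 and 10.8 TPM. Lymphatic endothelium was scarce, at 0.0111% ± 0.00321 (SD, n = 3), with Prox1, its defining transcription factor, at 2.42, 5.04 and 3.21 TPM and the chemokine Ccl21a, 80.6% of whose leading transcript's 31-base words occur in other genes, at 16.7, 60.3 and 43.1 TPM.

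Regulators were expressed at modest levels and were even between libraries. The 43 transcription regulators held 0.166%, 0.159% and 0.166% of the TPM, with a median coefficient of variation of 0.108. The stress factor Atf4 led at 128, 101 and 114 TPM, followed by Xbp1 of the unfolded protein response at 98.97, 112 and 110.0 TPM and Cebpb, an inflammatory regulator, at 95.8, 82.8 and 71.7 TPM. Spi1, the myeloid master regulator, had 93.3, 55.4 and 74.9 TPM, highest in replicate 1 as were Lyz2 and Csf1r. Cardiac factors were close in level, with Nkx2-5 at 39.4, 47.001 and 52.7 TPM, Mef2a at 53.5, 54.1 and 56.5 TPM and Gata4 at 43.6, 38.3 and 38.9 TPM. Srf, the factor named for the CArG box, had 59.5, 52.9 and 62.2 TPM.

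Runx1 (chromosome 16, 92601466 to 92826149), the gene altered in the rest of the series and intact here, had 35.3, 27.98 and 31.2 TPM and ranked 4079 by mean. It exceeded its relative Runx2 6.13-, 5.16- and 6.04-fold. Its binding partner Cbfb had 51.7, 43.2 and 46.7 TPM. The 3 Runx1 values lay within 1.5-fold of each other.

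Among growth factor pathways, the TGF-beta, BMP and activin list (29 of 31 genes at or above 1 TPM) held 0.125% ± 0.0076 (SD, n = 3). The ligand Tgfb1 had 109, 71.5 and 80.7 TPM and the ligand Tgfb3 had 95.3, 184 and 169.7 TPM, so Tgfb1 was the higher in replicate 1 and Tgfb3 the higher in replicates 2 and 3. The receptor Acvrl1 had 56.3, 58.5 and 63.003 TPM, the receptor Tgfbr2 60.6, 65.5 and 63.8 TPM, and the BMP target Id3 249, 236 and 282 TPM. In the list of other growth factor axes 10 of 32 members stood apart as low in replicate 1, against 8.19% of all genes. Among them were Igfbp4, which binds insulin-like growth factors, at 247, 458 and 463 TPM, and the Wnt modulator Sfrp1 at 165, 274 and 322 TPM. Another 2 stood apart as high there, against 6.18% of all genes, namely Igfbp3 (163, 94.0 and 104 TPM) and Igf2 (54.5, 20.4 and 26.2 TPM).

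The clearest differences among the controls were in whole lists that stood apart in replicate 1, as the bars of members by library show. Dividing-cell genes were high there. All 34 proliferation genes were at or above 1 TPM, the list held 0.108%, 0.0444% and 0.0611% of the TPM, and 26 (76.5%) stood apart as high in replicate 1 against 6.18% of all genes. In replicate 2, 12 members stood apart as low, against 3.75% of all genes. Stmn1, which destabilises microtubules, had 112, 43.6 and 62.9 TPM, Pcna had 101, 56.7 and 58.7 TPM and Cdk1 had 62.6, 27.1 and 34.9 TPM. Birc5, survivin, had 51.9, 10.6 and 21.7 TPM. For Birc5 the 3 libraries were ordered 1, 3, 2 with more than 1.5-fold between neighbours.

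**Figure D4:**
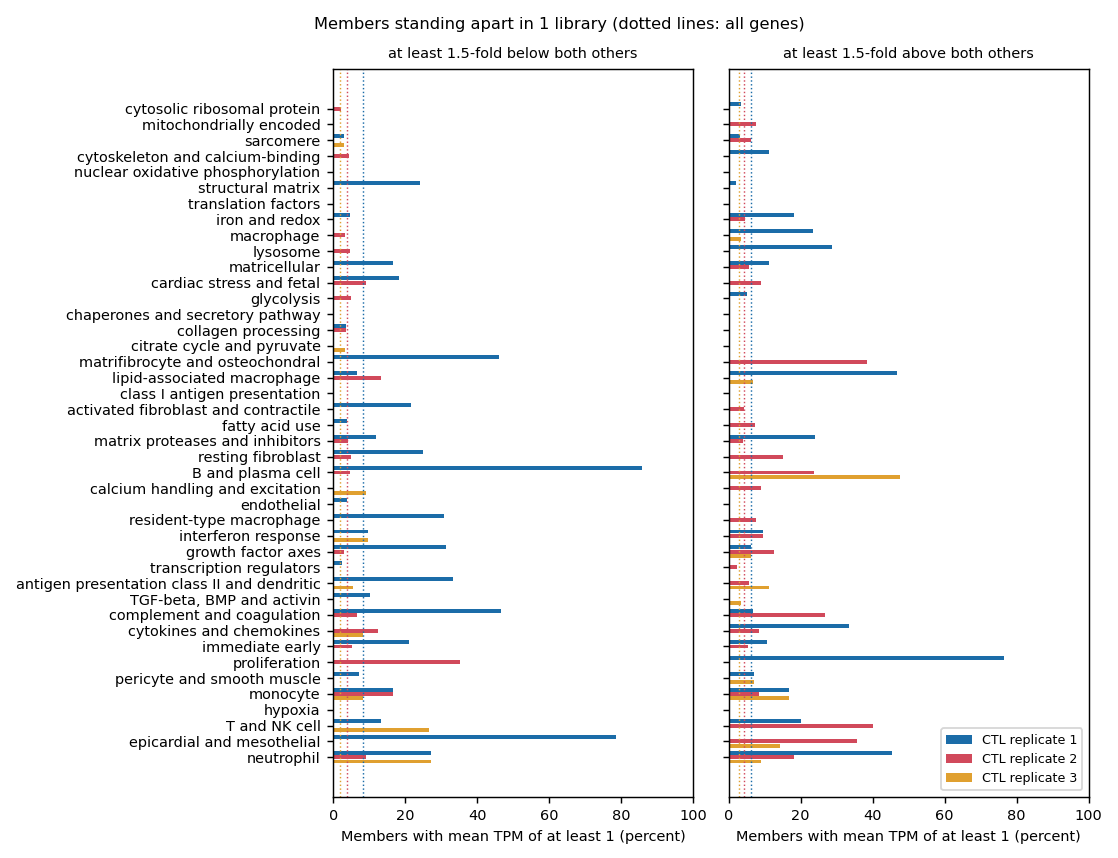
Percent of the members with a mean of at least 1 TPM that were at least 1.5-fold below (left) or above (right) both other libraries, for each gene list with at least 10 such members, with 1 bar per CTL library and dotted lines at the percent for all genes. Replicate 1 has the longest bars, low for B and plasma cell and mesothelial genes and high for proliferation genes.

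Fat-cell transcripts were almost missing from replicate 1. The adipocyte list held 0.000502%, 0.0845% and 0.0833% of the TPM, a 168-fold range. Of its 9 genes 7 reached a mean of 1 TPM, and all 7 stood apart as low in replicate 1 against 8.19% of all genes. A gene with such a pattern could pass the minimum only through the libraries in which it was high. Adipoq (chromosome 16, 23146536 to 23158028), adiponectin, had 0, 60.4 and 42.3 TPM from 0, 892 and 535 estimated reads. A count of 0 allows up to 3 reads in replicate 1, as counting error only. Cfd, adipsin, had 1.09, 523 and 541 TPM, Car3, a carbonic anhydrase of fat and muscle, had 2.09, 164 and 172 TPM and Cidec, a lipid droplet protein, had 0, 52.4 and 33.9 TPM. Replicates 2 and 3 were close to each other for Cfd and Car3.

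Mesothelial genes, of the sheet that covers the heart, followed the same pattern. The epicardial and mesothelial list (14 genes) held 0.009%, 0.0279% and 0.0193% of the TPM. Of these genes 11 (78.6%) stood apart as low in replicate 1, against 8.19% of all genes. Msln, mesothelin, had 9.03, 49.9 and 20.2 TPM, the uroplakin Upk1b had 12.3, 35.9 and 29.1 TPM, its relative Upk3b had 5.05, 42.1 and 22.7 TPM, and the keratin Krt19 had 2.86, 32.7 and 19.1 TPM. In each of the 4 the order was replicate 2, replicate 3, replicate 1. The epicardial factors Tbx18 (12.9, 9.85 and 11.5 TPM) and Aldh1a2 (21.2, 21.8 and 16.3 TPM) did not stand apart.

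B and plasma cell genes, mostly antibody chains, were low in replicate 1 too. The list held 0.0205%, 0.486% and 0.351% of the TPM, a 23.7-fold range. Of its members 18 of 21 (85.7%) stood apart as low in replicate 1, against 8.19% of all genes. As for the adipocyte and mesothelial lists, a member near 0 in replicate 1 could pass the minimum only through the other libraries. Igkc, the kappa light chain, had 107, 2962 and 2108 TPM, Ighm, the heavy chain of IgM, had 17.7, 883 and 708 TPM, Igha, that of IgA, had 50.03, 539 and 258 TPM and the joining chain Jchain had 8.69, 239 and 165 TPM. These 4 genes were highest in replicate 2. Other members were highest in replicate 3, where 10 of 21 (47.6%) stood apart as high against 2.81% of all genes. They included the light chain Iglc3, at 0, 20.2 and 43.04 TPM, and genes of the B-cell receptor. Cd79b had 3.51, 10.7 and 26.8 TPM, Cd79a had 0.947, 5.48 and 17.6 TPM and Ighd, the heavy chain of naive B cells, had 0.715, 5.07 and 27.1 TPM.

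Red-cell transcripts had their own order. The erythroid list held 0.379%, 1.19% and 2.16% of the TPM, and the 5 of 7 genes at or above 1 TPM stood apart both as low in replicate 1 and as high in replicate 3. Hba-a2, an alpha globin, had 1446, 4810.2 and 8503 TPM, Hbb-bs, a beta globin, had 1282, 4087 and 7321 TPM, Hba-a1 had 831, 2398 and 4623 TPM and Hbb-bt had 212, 542 and 1059.8 TPM. The haem synthesis enzyme Alas2 had 14.7, 26.96 and 54.3 TPM. The alpha globins are near-identical copies, as are the beta globins, so reads within each pair were divided by estimate. Slc4a1, a red-cell membrane gene, was under 1 TPM in every library.

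**Figure D5:**
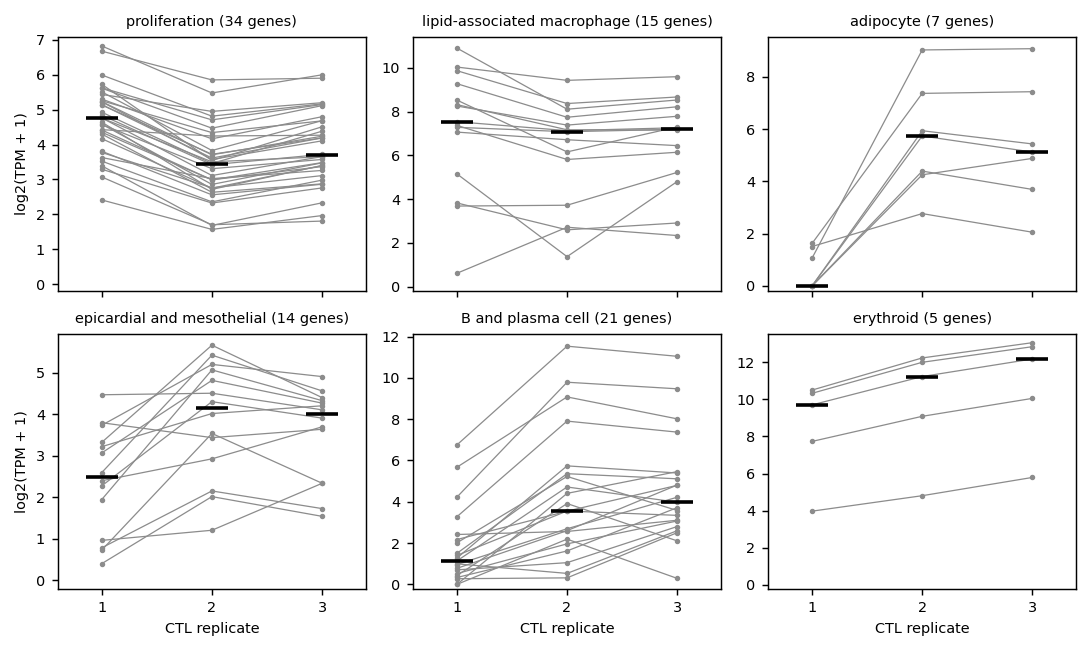
log2(TPM + 1) of every member with a mean of at least 1 TPM in 6 gene lists, by CTL replicate, with grey lines joining the values of 1 gene (libraries have no order) and black bars at the median. Most proliferation and lipid-associated macrophage members are higher in replicate 1, and most adipocyte, mesothelial, B and plasma cell and erythroid members are lower there.

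Smaller lists also stood apart, on few genes. Among mast cell genes 4 of the 5 at or above 1 TPM were low in replicate 1, against 8.19% of all genes. They included Cma1 (1.28, 3.66 and 4.27 TPM) and Cpa3 (0.177, 2.24 and 2.7 TPM). Their estimated reads were few, at 15, 43.1 and 43.02 for Cma1 and 3, 38.2 and 39 for Cpa3. The remaining member, Kit, was the most abundant of the list at 11.7, 5.32 and 8.46 TPM and stood apart as low in replicate 2. In the lymphatic list 3 of 6 were low in replicate 1. In the skeletal muscle list 3 of 7 were low in replicate 1 and 3 high in replicate 2, with the leader Tnnt3, a fast troponin, at 30.7, 35.7 and 53.6 TPM and Mylpf, a fast light chain, at 2.92, 11.01 and 4.93 TPM. In the platelet list Pf4, a chemokine stored in platelets, had 384, 110.4 and 106 TPM and stood out as high in replicate 1, as did Gp1bb (4.15, 0.771 and 1.73 TPM), a receptor subunit. Pf4 made up most of the list's TPM, with a mean of 200 TPM against 4.45 TPM for Itga2b, the next member. Gp1bb, Treml1 (2.38, 1.37 and 2.47 TPM) and Gp9 (1.23, 0.748 and 1.27 TPM), 3 of 6 members, stood apart as low in replicate 2 against 3.75% of all genes, while Ppbp (3.14, 1.63 and 2.33 TPM) and Itga2b (4.36, 3.42 and 5.57 TPM) did not stand apart. In the atrium list 2 of 5 were low in replicate 1 and 2 high in replicate 2. Its members Myl1 (59.3, 108 and 96.4 TPM) and Dkk3 (45.6, 95.0 and 61.6 TPM) were not among the 3 atrial markers summed above. Myl7, which was, had 0.647, 4.49 and 1.74 TPM.

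Genes outside the lists extended the picture of spread. Among protein-coding genes with a mean of at least 10 TPM, those with the largest coefficients of variation included Ahcy, of methionine metabolism, at 34.2, 0.737 and 3.06 TPM, and Serpina3i at 61.4, 6.06 and 6.55 TPM, both high in replicate 1. Of the 31-base words of the leading Ahcy transcript 79.4% occur in other genes. Gm4737, 95.6% of whose words do, was low where Ahcy was high, at 0.432, 27.2 and 33.9 TPM, and whether reads were divided between these 2 genes was not tested. Cxcl13, the chemokine that draws B cells, had 3.43, 41.7 and 118 TPM, in the same order of libraries as Cd79a and Cd79b. Cyp2e1, an oxidase, had 0, 78.9 and 45.6 TPM, absent from the reads of replicate 1 like Adipoq. Npy, a neuropeptide, had 34.8, 3.02 and 9.53 TPM. For some genes TPM and reads differed in pattern. Chd9, a chromatin remodeller, had 42.5, 7.47 and 9.998 TPM but 1288, 1094 and 1174 estimated reads, and Cep85, a centrosome protein, had 91.6, 10.9 and 12.1 TPM from 1279, 350.0 and 367 estimated reads. Gm49342 reached 34.5, 6.08 and 0 TPM from 241, 43.05 and 0 estimated reads.

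The steadiest genes above 100 TPM were of general cell function. Chmp2a, of membrane remodelling, had 159, 160.4 and 160.2 TPM and Ddb1, of DNA damage recognition, had 188, 191 and 189 TPM. App, the amyloid precursor, had 394, 388 and 391 TPM and Gabarap, of autophagy, had 386, 393 and 392 TPM. Among these steadiest genes were also 2 of the scar, Bmp1 and Col1a2, so Col1a2 ran only from 2778 to 2849 TPM in the same 3 libraries in which Cfd, Msln and Igkc differed many-fold.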

How the data were processed

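Poly-A RNA from 3 CTL libraries was described; 3 knockout libraries were not used. The submitters' processing notes name Salmon 1.5.2, DESeq2 1.44.0 and the build mm10, that is GRCm38. Which transcript release was indexed is not given in the sources used here. For each of 116546 transcripts the authors deposited a TPM value, scaled to the same total in every library. They also deposited estimated counts, which need not be whole because reads are divided between transcripts that share sequence. Both were summed per gene here by transcript identifier without version through the GENCODE M21 (GRCm38) annotation. In all, 115977 transcripts matched 35498 genes and 569 did not, with 0.0777% to 0.0932% of the reads, and were left out. The tables list only 14 lincRNA genes, so long noncoding RNA is hardly covered.

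Shares, ranks and coefficients of variation came from TPM. Dispersion and TMM factors came from rounded estimated counts with edgeR 4.0.16 (R 4.3.3) and an intercept-only design, checked on simulated data. Sharing of 31-base words was computed from the reference transcripts. The group, the gene lists and the rules were chosen with earlier results of these data known. Named genes were drawn from the most abundant overall and in each list, cell type markers, fixed pairs, the most and least variable genes, and the 4 most abundant members of each list in which at least 40% of members stood apart; not every gene of this pool is printed. Genes named after their values were seen were Acvrl1, Apoc4, Aspn, C1qc, Camp, Ccl2, Cd5l, Chil3, Cilp, Clec4e, Col4a1, Col5a2, Dcn, Des, Eln, F13a1, Fbln2, Folr2, Gm4737, Hmox1, Igf2, Ldb3, Loxl1, Mfap4, Mpo, Myl3, Myom1, Nebl, Ngp, Pdgfrl, Slc4a1, Sox9, Tbx18 and Tgfbr2.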

Additional observations from a re-analysis of the deposited data

How the results depend on the processing

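No paired analysis was possible because only 1 group was described and no result came from a test. Counting reads in place of TPM moved the number of genes holding 50% from 217 to 743, and the shares of structural matrix to 7.57%, mitochondrial genes to 6.06%, ribosomal proteins to 3.65%, macrophage genes to 1.13% and erythroid genes to 0.311%. Leaving out mitochondrial genes gave 3.28% for structural matrix, 3.603% for sarcomere and 14.3% for ribosomal proteins. Protein-coding genes alone gave 3.43% for sarcomere, and 0.0204% for B and plasma cells with 7 of 10 members low in replicate 1 in place of 18 of 21. Chosen after seeing the data, leaving out genes that share at least 50% of 31-base words gave 474 genes for 50%, 4.31% for structural matrix, 4.55% for sarcomere, 5.98% for mitochondrial genes, 2.31% for macrophage, 0.00486% for erythroid with the 1 remaining member high in replicate 3, and 3.54% for ribosomal proteins. Counting mitochondrial-like pseudogenes gave 16.2%. The number of genes standing apart was 903 with a mean of at least 10 TPM, 7959 with no minimum and 1460 at 2-fold, against 3064. At 10 TPM the members low in replicate 1 were 11 of 11 for B and plasma cells, 7 of 9 for mesothelium and 3 of 9 for the matrifibrocyte list, against 3.95% of all genes. A gene low in replicate 1 could pass this minimum too through the other libraries. At 2-fold, 14 of 34 proliferation genes were high in replicate 1, 1 of 5 erythroid genes was high in replicate 3 and 5 of 50 structural matrix genes were low in replicate 1. Each shift follows from the denominator, minimum or fold used. Leaving out 1 library moved some shares. The erythroid share ran from 0.783% without replicate 3 to 1.67% without replicate 1, B and plasma cells from 0.186% without replicate 2 to 0.419% without replicate 1, and adipocyte genes from 0.0419% without replicate 2 to 0.0839% without replicate 1. The platelet list, most of whose TPM is Pf4, fell to 0.0119% without replicate 1. Lipid-associated macrophage genes ran from 0.261% without replicate 1 to 0.454% without replicate 2. The median coefficient of variation was 0.101 without replicate 1. The ratios in reads of Myh6 to Myh7 and of Col3a1 to Col1a1, given above, were chosen after seeing the data.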
